A study of Mus musculus with 4 samples.

Results

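The expression of 10 genes of the Notch pathway was followed: the ligand genes *Dll4*, *Dll1*, *Jag1* and *Jag2*, the receptor genes *Notch1* and *Notch4*, the targets *Hey1*, *Hey2* and *Hes1*, and *Rbpj*. Their rows were taken by symbol and not by a cutoff on their values, but the list was drawn up with earlier results of these data known. Each of the 10 symbols matched exactly 1 of the 32286 genes counted. Single-cell RNA was counted as unique molecular identifiers (UMIs, 1 per captured transcript) with 10x Genomics 3′ chemistry in brain microvessels captured on beads with an antibody to PECAM1. The 4 mice, of 3 months, gave 1 library each: 2 *Angpt2*-WT mice (genotype Angpt2+/+, WT1 female and WT2 male) and 2 *Angpt2*-KO mice (genotype Angpt2-/-, KO1 female and KO2 male). All 4 came from a C57BL6/J background, the WT mice being littermates of the line. The KO is constitutive, made with a *Pgk*-Cre line that acts in all tissues, so it is not limited to endothelium, and it removes exon 4 of *Angpt2*. With 2 mice a genotype, no exact two-sided permutation test of a single value can give a p below 0.333, so genotypes were tested with a model fitted across all genes. For the same reason, genotypes without overlap have a probability of 0.333 for a gene with no genotype effect. The share of all genes without overlap was not counted, so a lack of overlap is description only. Each mouse is 1 animal, and p-values measure the spread between these mice.

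Notch signalling passes between neighbouring cells. Delta-like and Jagged ligands on one cell bind Notch receptors on the next, the receptor is cut, and its intracellular part enters the nucleus, joins the DNA-binding protein RBPJ and switches on targets of the *Hey* and *Hes* families. In vessels, DLL4 acting on NOTCH1 is known for restraining sprouting and for arterial identity, and Jagged1 from endothelial cells (ECs) and mural cells is known for maturation of smooth muscle through NOTCH3.

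In the GRCm38 build (GENCODE M21) *Dll4* lies on chromosome 2 from 119325784 to 119335962 on the plus strand, *Notch4* on chromosome 17 from 34564268 to 34588503 on the plus strand, and *Hey2* on chromosome 10 from 30832359 to 30842801 on the minus strand. All 10 genes are protein coding. *Dll4*, *Dll1*, *Notch1*, *Notch4* and *Rbpj* overlap a gene on the other strand, and *Jag2* and *Notch1* hold a microRNA gene on their own strand. Promoter sequences (250 bases before to 50 bases after a RefSeq start, GRCm38.p6) were matched by symbol for 8 of the 10 genes, all but *Hes1* and *Hey1*. Those of *Dll4* and *Notch4*, the members higher in KO in the same classes below, and of *Hey2*, the target found mostly in mural cells, are shown 5′ to 3′ on the gene's strand. Capitals mark TGGGAA, the core of the sequence that RBPJ binds, or its reverse complement.
Dll4, chr2:119325534-119325833, plus strand: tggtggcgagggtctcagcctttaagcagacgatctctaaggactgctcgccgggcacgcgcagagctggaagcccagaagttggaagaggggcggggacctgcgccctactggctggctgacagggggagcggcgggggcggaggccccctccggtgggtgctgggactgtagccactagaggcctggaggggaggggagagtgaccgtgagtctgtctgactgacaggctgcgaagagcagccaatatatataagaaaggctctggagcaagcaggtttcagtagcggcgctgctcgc
Notch4, chr17:34564045-34564344, plus strand: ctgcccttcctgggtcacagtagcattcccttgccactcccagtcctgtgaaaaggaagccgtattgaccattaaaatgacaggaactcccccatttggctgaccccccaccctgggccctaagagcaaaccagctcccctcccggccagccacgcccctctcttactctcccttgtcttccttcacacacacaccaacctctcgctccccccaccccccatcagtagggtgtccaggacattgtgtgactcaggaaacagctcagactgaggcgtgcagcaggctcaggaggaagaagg
Hey2, chr10:30842734-30843033, minus strand: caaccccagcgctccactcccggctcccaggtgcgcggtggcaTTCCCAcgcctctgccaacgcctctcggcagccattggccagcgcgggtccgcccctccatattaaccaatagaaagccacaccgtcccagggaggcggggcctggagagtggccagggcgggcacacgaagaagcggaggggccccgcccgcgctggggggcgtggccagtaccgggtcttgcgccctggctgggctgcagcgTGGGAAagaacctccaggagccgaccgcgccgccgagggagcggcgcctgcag
TGGGAA on either strand was found in the promoters of *Hey2* (starting at bases 44 and 248 of the 300) and *Rbpj*, 2 of the 8 member genes with a sequence, and in 25.6% of all 32851 promoters. The longer GTGGGAA, which contains it, was found in *Hey2* only among the members and in 6.38% of all promoters. The E-box CACGTG, a sequence that HEY and HES proteins can bind, was in none of the 8 and in 7.15% of all. A match is a description of these letters and not of binding.

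Cells that showed over 500 genes and less than 10% of UMIs from mitochondrial genes numbered 17999 of 19809 barcodes, 2900 to 5742 per mouse, with 31753395 to 42903731 UMIs per library and 4088.5 to 7351.5 UMIs in the median cell. In all, 33 barcodes occurred in more than 1 library, 0 to 13 for any pair of libraries. No doublet caller was run. *Angpt2*, the targeted gene, was counted in the ECs at 10.6 and 9.96 in WT and 64.8 and 41.0 in KO, in CPM (UMIs of the gene per 1000000 UMIs of all genes in the class). Reads from the 3′ end lie outside the deleted exon, so its level does not check the genotype labels. *Apln*, a secreted peptide gene known from sprouting tip cells, was at 3.22 and 4.71 in WT and 411 and 117 in KO CPM. Clusters were rebuilt here and named from fixed markers, so cell numbers may differ from the study's because of the names, and the 56 genes of the Notch list were left out of the EC clustering.

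Of 14154 ECs, 1826 were arterial-like, 4138 capillary-like, 702 venous-like and 1793 angiogenic-like, and the other 5695 formed 2 clusters left unnamed. Summed arterial markers (10 genes, among them *Bmx* and *Gkn3*) ran from 2769 to 5014 CPM in arterial-like cells and from 394 to 546 in capillary-like cells. Summed venous markers (8 genes) ran from 4842 to 5257 in venous-like cells and from 458 to 545 in capillary-like cells. The capillary-like cluster was led by *Gm26917*, *Lars2* and *Gm42418* and was shallow, with a median of 3139.5 UMIs per cell. Its 10 leading genes held 1 capillary marker and 1 marker of another class, and with clustering at resolution 0.6 a cluster also led by *Gm26917* held 1 and 2 and was left unnamed. Venous-like cells had a median depth of 19392 and 18340 in WT and 15320.5 and 4836 in KO mice, so KO2 was much shallower there. Of the 17999 cells, 599 were pericyte-like and 706 smooth muscle-like, with all 8 markers of each type found in each mouse. The zone mix differed between genotypes. Arterial-like cells were 20.2% and 14.8% in WT and 7.09% and 8.01% in KO mice of the ECs, and angiogenic-like cells 1.09% and 0.808% in WT and 40.3% and 21.2% in KO mice. In a sum over all ECs, a change in zone shares and a change of RNA per cell therefore cannot be told apart.

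Levels are given as CPM, summed over the cells of a class in 1 mouse. They follow transcript numbers at the 3′ end, and levels are not compared between genes here. Cells of 1 class in 1 mouse are not replicates, so zones, which were drawn on the same cells, are described by the values of the 4 mice with no test between them.

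Among the ligands, *Dll4*, the main endothelial Delta-like ligand, was higher in arterial-like and capillary-like ECs than in venous-like ECs. It stood at 156 and 133 in WT and 214 and 160.4 in KO mice in arterial-like ECs, and at 143 and 148 in WT and 168 and 163 in KO in capillary-like ECs. In venous-like ECs it stood at 18.9 and 19.4 in WT and 13.1 and 21.3 in KO. Arterial-like and capillary-like ranges overlapped, and every venous-like value lay below every capillary-like one, with a ratio of capillary-like to venous-like level between 7.58 and 12.8 within the 4 mice. Its capillary level depended on which cluster is named. In the 2 unnamed EC clusters, numbered 1 and 2, *Dll4* ran from 73.9 to 96.3 and from 26.6 to 43.9. With cells thinned to 2000 UMIs it ran from 69.4 to 92.5 and 23.7 to 42.1 there, against 147 to 162 in the capillary-like cluster. Summed capillary markers ran from 6280.5 to 6592 CPM in cluster 1, 6027 to 7042 in cluster 2 and 7591 to 8471 in the capillary-like cluster, and summed arterial markers from 154 to 182, 51.7 to 69.7 and 394 to 546, whose part was not tested. *Jag2*, a Jagged ligand of endothelium, was graded across the 3 named zones, from 294 to 346 in arterial-like through 187 to 271 in capillary-like to 65.2 to 99.4 in venous-like ECs, with no overlap between neighbours. Its levels in the 2 unnamed EC clusters are not given here, so its capillary place holds for the named cluster only. *Dll1*, another Delta-like ligand, ran the other way. It was at 25.9 and 22.7 in WT and 30.6 and 17.6 in KO in venous-like ECs, above all values in arterial-like (5.17 to 10.2) and capillary-like ECs (4.10 to 6.01), which overlapped each other. Fenestrated endothelial-like cells, which are not counted among the ECs here, overlapped the venous-like range of *Dll1* with 11.8 to 28.3. Levels of *Dll1* in the unnamed EC clusters are not given here, so its order holds for the named zones only.

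*Jag1*, the Jagged ligand shared by endothelium and mural cells, was at 209 and 213 in WT and 281 and 268 in KO mice in smooth muscle-like cells, its highest class. In arterial-like ECs it was at 102 and 93.6 in WT and 105 and 176 in KO, and pericyte-like cells overlapped them with 83.7 to 111. In the pericyte-like cells with under 3 UMIs of the endothelial markers it was at 163 to 190.5, so its place in the order of classes held for the mixed class. Capillary-like (69.6 to 88.2) and venous-like ECs (56.0 to 82.7) overlapped each other. In arterial-like ECs the 176 of KO2 stood apart from the other 3 mice, whose values lay between 93.6 and 105.

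Among the receptors, *Notch1* ran from 277 to 361 in arterial-like and 299 to 365 in capillary-like ECs, which overlapped, to 183 to 234 in venous-like ECs. *Notch4*, a receptor known mainly from endothelium, was at 77.2 and 77.7 in WT and 103 and 105 in KO mice in arterial-like and 75.5 and 96.2 in WT and 121 and 100.1 in KO in capillary-like ECs. Its 25.9 to 40.1 in venous-like ECs lay below both. The unnamed EC clusters are not placed in these orders of *Notch1* and *Notch4*, so the capillary places hold for the named cluster only. *Rbpj*, whose protein is the DNA-binding partner of all Notch receptors, varied less, with 53.6 to 67.7 in arterial-like, 64.5 to 75.4 in capillary-like, 48.9 to 63.9 in venous-like ECs, 62.5 to 79.1 in pericyte-like and 61.9 to 74.5 in smooth muscle-like cells. The venous-like range lay just below the capillary-like one, and the arterial-like, pericyte-like and smooth muscle-like ranges overlapped both.

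The targets differed in where they were found. *Hey1*, a transcriptional repressor of arterial endothelium, stood at 126 and 132 in WT and 159.6 and 164 in KO mice in arterial-like ECs, above 66.8 and 85.9 in WT and 86.4 and 82.3 in KO in capillary-like ECs in every mouse (ratio 1.53 to 1.99). The capillary-like values of *Hey1* are those of the named cluster only, and its levels in the unnamed EC clusters are not given here. In venous-like ECs it was close to absent, at 0.959 and 5.48 in WT and 2.18 and 6.69 in KO, from 58 UMIs in all. *Hey2*, a paralog of *Hey1* known from arterial smooth muscle, was found mostly in mural cells, at 134 and 111 in WT and 110.1 and 140.2 in KO mice in smooth muscle-like and 59.1 and 57.0 in WT and 40.9 and 33.3 in KO in pericyte-like cells, and at 5.09 to 11.1 in arterial-like and 0 to 1.87 in capillary-like ECs. Its smooth muscle-like values lay above its pericyte-like values in all mice. *Hes1*, a target found in many cell types, was higher in arterial-like than in capillary-like ECs within each mouse (ratio 1.97 to 2.32), with 348 and 257 in WT and 278 and 192 in KO against 150 and 130.0 in WT and 135 and 86.2 in KO. The 8 immediate early and heat shock genes of the stress list summed to 7611 to 9485 CPM in arterial-like and 1119.6 to 1339 in capillary-like ECs, whose part was not tested. In the unnamed EC cluster 1 *Hes1* was at 324 and 245 in WT and 262 and 183 in KO, a range that overlapped that of arterial-like ECs. Venous-like values of *Hes1* (147 to 242) overlapped those of both.

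**Figure D1:**
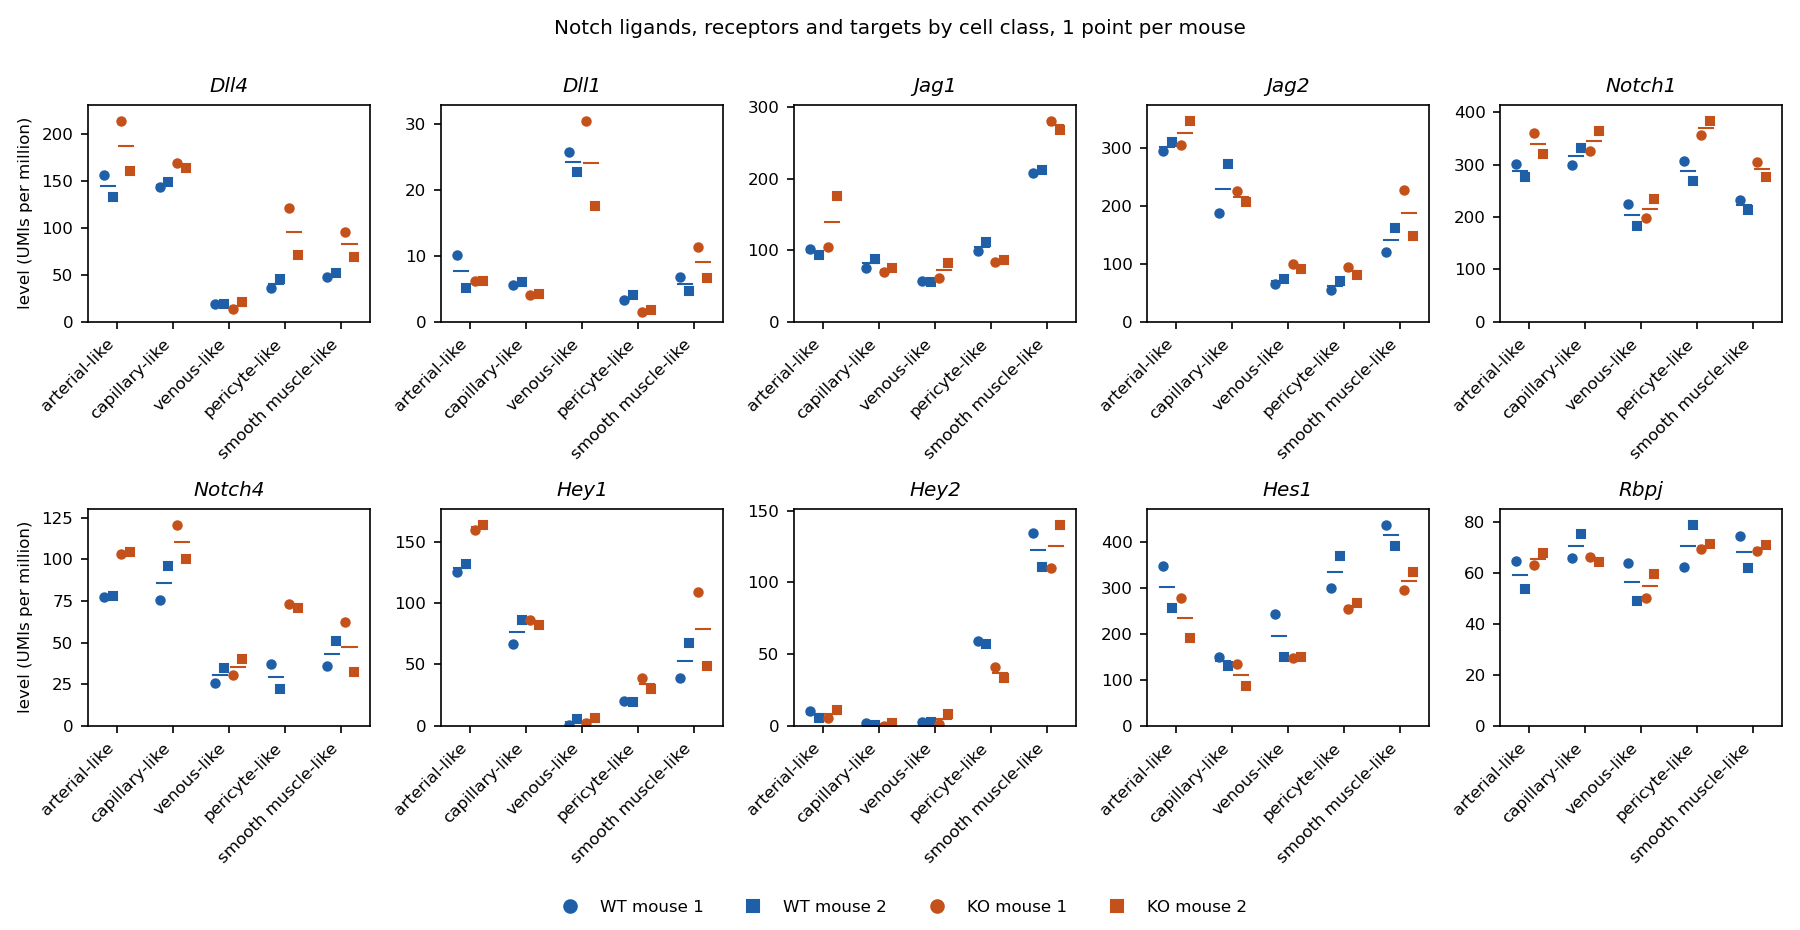
Level of each gene in CPM (y axis, linear, from 0) in arterial-like, capillary-like and venous-like ECs, pericyte-like and smooth muscle-like cells (x axis). Each point is 1 mouse (blue WT, orange KO, circle mouse 1, square mouse 2) and each short line the mean of 2 mice. *Dll4* lies at 13.1 to 21.3 in venous-like and at 143 to 168 in capillary-like ECs. Among the classes shown, *Dll1* is highest in venous-like ECs and *Hey2* is near 0 in ECs.

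Genes with the pattern most like that of 4 members were ranked by Pearson's r of log2(level + 1) across 32 sums (6 EC clusters, pericyte-like and smooth muscle-like cells, 4 mice each) among 8743 genes with a mean of at least 10 CPM. The closest to *Dll4* were *Unc5b* (r = 0.93), *Clec1a* (0.92) and *Gja1* (0.92). The closest to *Hey1* were *Unc5b* (0.95), *Efnb2* (0.92) and *Rad54b* (0.92). The closest to *Jag1* were *Olfml2a* (0.93), *Marveld1* (0.92) and *Atp2b4* (0.92), and the closest to *Notch4* were *Pdgfd* (0.91), *Kcnj2* (0.88) and *Akr1c14* (0.88). The sums share libraries and cell classes, so the r values describe likeness across classes, with no test. *Unc5b*, a netrin receptor gene of arteriolar endothelium, stood first for both *Dll4* and *Hey1*.

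The share of cells with at least 1 UMI follows depth as well as level, so it was taken from all UMIs and again after each cell had been thinned to 2000 UMIs, which left out 1983 shallower cells. Intervals are exact (Clopper-Pearson) and cover counting error only. With all UMIs, *Dll4* was found in 53.5% (95% interval 49.5 to 57.3) of arterial-like ECs of WT1, 44.0% (95% interval 40.3 to 47.8) of WT2, 60.8% (95% interval 52.5 to 68.7) of KO1 and 49.4% (95% interval 43.9 to 54.9) of KO2. After thinning the shares were 20.5% and 19.2% in WT and 25% and 23.0% in KO. In venous-like ECs *Dll4* was found in 32.9% and 28.2% in WT and 16.7% and 17.0% in KO, and in 5% and 3.65% in WT and 0% and 4.80% in KO after thinning. The 0 of KO1 rests on 41 cells, and with a limit of 3 counts it allows a share of up to 7.32%.

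*Hey1* was found in 47.6% and 42.4% in WT and 57.4% and 48.8% in KO arterial-like ECs and in 2.10% and 7.26% in WT and 4.76% and 3.14% in KO venous-like ECs. *Hey2* was found in 52.2% and 58.9% in WT and 75% and 58.2% in KO smooth muscle-like cells and in 0.711% and 0.152% in WT and 0% and 0.460% in KO capillary-like ECs. *Dll1* was found in 32.9% and 33.2% in WT and 38.1% and 14.5% in KO venous-like ECs, or 3.57% and 5.90% in WT and 2.44% and 4.80% in KO after thinning. Microglia-like cells, which should lack *Dll4*, *Hey1* and *Hey2*, were taken as background. Endothelial markers summed to 887 to 2353 CPM in them, and the parts of free RNA and of doublets in this were not tested. Their median depths were 4521 and 4030 in WT and 6265 and 3490 in KO mice, against 7617 and 6012 in WT and 9295 and 5212 in KO in arterial-like ECs. Microglia-like cells held *Dll4* in 2.88% and 2.48% in WT and 3.02% and 1.48% in KO, and *Hey1* in 1.92% and 3.11% in WT and 1.89% and 1.11% in KO. After thinning they held *Hey1* in 0.420 to 0.758%, against 0 to 0.843% of venous-like ECs, and their *Hey1* level of 2.97 to 10.8 CPM overlapped the 0.959 to 6.69 of venous-like ECs. By these 2 measures *Hey1* in venous-like ECs was not set apart from background. With all UMIs its share was higher in venous-like ECs in each mouse. Venous-like ECs were also deeper, with medians of 19392 and 18340 in WT and 15320.5 and 4836 in KO, and the part of depth was not tested. *Dll1* shares of capillary-like ECs (1.23 to 1.93%) overlapped those of microglia-like cells (0 to 1.86%) and are not read as expression. *Hey2* was found in 0 to 0.377% of microglia-like cells. *Notch1*, *Hes1* and *Rbpj* were also found in 17.8% to 42.6% of microglia-like cells, so that type sets no background for them.

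**Figure D2:**
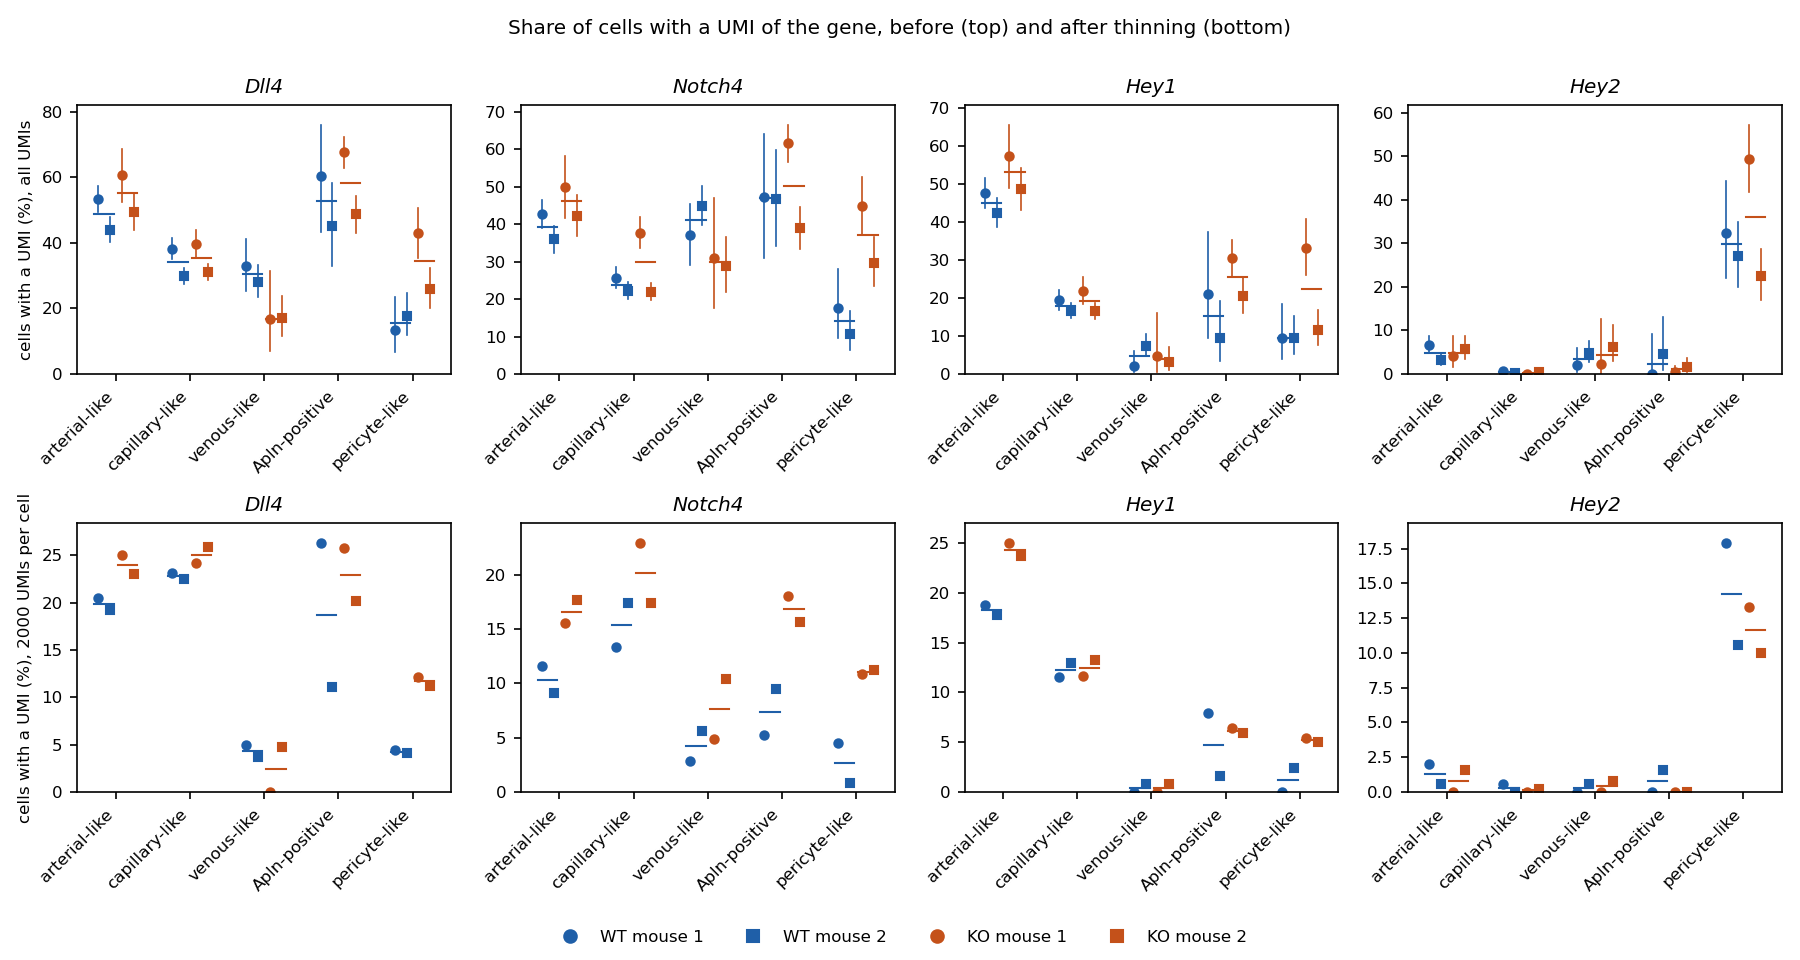
Percent of cells with a UMI of *Dll4*, *Notch4*, *Hey1* and *Hey2* (y axis, from 0) by class (x axis), with all UMIs (top, bars are exact 95% intervals) and after thinning to 2000 UMIs per cell (bottom). Points are mice (blue WT, orange KO) and short lines means of 2 mice. The share of venous-like ECs with *Dll4* is 16.7 to 32.9% in the top row and 0 to 5% in the bottom row.

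The first genotype comparison took all brain ECs, with fenestrated ECs left out. *Notch4* was higher in KO and *Dll1* lower, and the other 8 members were not called. *Notch4* was at 55.1 and 54.5 in WT and 87.8 and 78.4 in KO mice, with a log2 fold change of 0.58 ± 0.11 (SE) and an adjusted p of 0.0178 (edgeR, quasi-likelihood fit, Benjamini-Hochberg over all genes tested). *Dll1* was at 10.2 and 10.1 in WT and 4.52 and 5.41 in KO, with a log2 fold change of -1.04 ± 0.17 (SE) and an adjusted p of 0.0110 (edgeR). Neither gene overlapped between genotypes. *Hes1* was lower in both KO mice, at 279 and 206 in WT and 202 and 144 in KO, but was not called (edgeR adjusted p = 0.209, or 0.0186 without KO1, 0.0129 with no filter on low counts and 0.0445 after thinning), and the stress list summed to 7771 and 7205 in WT and 4755 and 5010.3 in KO CPM beside it, whose part was not tested. *Dll4* was at 89.2 and 69.9 in WT and 140.2 and 108 in KO, did not overlap either, and missed the threshold with a log2 fold change of 0.62 ± 0.16 (SE) and an adjusted p of 0.0681 (edgeR). It passed with DESeq2 (adjusted p = 0.00538), with the replicate number as a block, with no filter on low counts and without KO2 (edgeR adjusted p = 0.00607, 0.000181 and 0.00296). In this comparison 5.95% of the 13520 genes tested were called, against 2 of the 10 members. Both calls were lost outside the angiogenic cluster. With the angiogenic cluster left out, *Notch4* had a log2 fold change of 0.46 (adjusted p = 0.0634) and *Dll1* of -0.48 (adjusted p = 0.203). In that setting edgeR called none of the members and 183 of all 13168 genes. *Dll1* had adjusted p-values of 0.0522 without WT1 and 0.0569 without WT2 (edgeR), and *Notch4* of 0.0568 without WT2 and 0.0818 without KO1.

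When the 6 EC clusters were given equal weight in each mouse, an alternative chosen after seeing the data and given without a test, *Notch4* was at 54.9 and 64.9 in WT and 78.6 and 76.2 in KO, which still did not overlap. *Dll4* was at 94.8 and 102 in WT and 117 and 99.7 in KO, and *Dll1* at 11.1 and 7.61 in WT and 8.90 and 6.96 in KO, and both overlapped. In the angiogenic-like cluster itself, which held 35 and 38 cells of the WT mice and 841 and 879 of the KO mice, *Dll4* was at 124 and 187 in WT and 179 and 153 in KO and *Notch4* at 57.0 and 88.2 in WT and 97.995 and 84.7 in KO, with overlap in both. Its KO levels of *Dll4* lay close to those of KO capillary-like ECs (168 and 163). *Jag1* and *Jag2* were lower in the angiogenic-like than in the capillary-like cluster in each mouse, with ratios of 0.353 to 0.722 and 0.526 to 0.742.

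Within zones the main test called no member between genotypes. In arterial-like ECs edgeR called 0 of 10 members and DESeq2 0, with 3 of 10 at an unadjusted p under 0.05, and 0.481% of all genes were called. Those 3 were *Notch4*, *Jag1* and *Hes1*. *Notch4* was at 77.2 and 77.7 in WT and 103 and 105 in KO (edgeR adjusted p = 0.413) and *Jag1* at 102 and 93.6 in WT and 105 and 176 in KO (edgeR adjusted p = 0.419). The third, *Hes1* was at 348 and 257 in WT and 278 and 192 in KO and overlapped (edgeR adjusted p = 0.506). *Dll4*, *Hey1* and *Notch1* were each above both WT mice in both KO mice, and no member was below. The share of all genes with such a separation was not counted, so no result about the members is read from it. *Jag1* passed the threshold in arterial-like ECs only without KO1 (log2 fold change 0.81, edgeR adjusted p = 0.0138), where KO2 alone stood for the KO.

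In capillary-like ECs outside the angiogenic cluster 9 members were tested (*Hey2* was under the filter on low counts), and edgeR and DESeq2 called 0, with 3 at an unadjusted p under 0.05. There 1.98% of all genes were called. *Notch4* came nearest, at 75.5 and 96.2 in WT and 121 and 100.1 in KO (edgeR adjusted p = 0.0941), followed by *Hes1* at 150 and 130.0 in WT and 135 and 86.2 in KO and *Dll4* at 143 and 148 in WT and 168 and 163 in KO. *Hes1* passed without WT2 or without KO1 (edgeR adjusted p = 0.00375 and 0.00103), and *Notch4* without KO2 (adjusted p = 0.0187). With no filter on low counts edgeR called both (adjusted p = 0.0348 and 0.0374). *Notch4* and *Dll4* were higher in both KO mice than in both WT mice, and *Dll1* and *Jag1* were lower in both. In venous-like ECs edgeR tested 9 members and called 0, with 1 (*Hes1*) at an unadjusted p under 0.05, and 0.058% of all genes were called. DESeq2 called 0 as well, but it gave an adjusted p for 843 genes only. Whether members were among those 843 is not given here, so its 0 is not read as a second result. *Hes1* was at 242 and 149 in WT and 147 and 149 in KO there (edgeR adjusted p = 0.481, or 0.00919 without WT2). Pericyte markers summed to 197 and 136 in WT and 5.46 and 329.5 in KO CPM in the venous-like cells, and their part in any venous value was not tested.

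With all 4 mice, the genotype effect did not pass the test of a difference between zones for any member. For arterial-like minus capillary-like ECs edgeR and DESeq2 called 0 of 10 members, with 1 (*Jag1*, edgeR adjusted p = 0.198) at an unadjusted p under 0.05, and 0.112% of all genes were called. Without KO1 *Jag1* passed, with a difference of 0.93 on the log2 scale (edgeR adjusted p = 0.0096). For venous-like minus capillary-like ECs both tools called 0 of 10, with 2 (*Jag1* and *Jag2*) at an unadjusted p under 0.05, and 0.268% of all genes were called. These p-values do not show that the effects were alike.

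ECs with at least 1 *Apln* UMI numbered 38 and 64 in WT and 391 and 308 in KO mice, or 1.18% and 1.36% in WT and 18.7% and 7.43% in KO of the ECs. Microglia-like cells held an *Apln* UMI in 0.481% and 0.621% in WT and 4.15% and 1.85% in KO as background. The same label also gathered other zones in the genotypes. The angiogenic-like cluster held 31.6% and 14.1% in WT and 76.7% and 61.4% in KO of the *Apln*-positive ECs, and the venous-like cluster 10.5% and 34.4% in WT and 1.53% and 4.55% in KO. Median depth was 11303 and 13092 in WT and 12625 and 5881 in KO.

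In these cells 4 of the 9 members tested were called between genotypes, where 9.85% of all genes were called. *Dll4* was higher in KO, at 72.0 and 45.5 in WT and 164 and 139.6 in KO mice, with a log2 fold change of 1.45 ± 0.21 (SE) and an adjusted p of 0.000777 (edgeR). *Notch4* was higher, at 42.9 and 43.7 in WT and 103 and 77.7 in KO, with a log2 fold change of 1.07 ± 0.21 (SE) and an adjusted p of 0.00605 (edgeR). *Hey1* was higher, at 20.6 and 6.003 in WT and 34.5 and 33.2 in KO, from 12 and 7 UMIs in the WT mice, with a log2 fold change of 1.61 ± 0.37 (SE) and an adjusted p of 0.0153 (edgeR). *Dll1* was lower, at 12.002 and 18.0 in WT and 3.57 and 4.90 in KO, from 7 and 21 UMIs in WT and 26 and 14 in KO, with a log2 fold change of -1.96 ± 0.41 (SE) and an adjusted p of 0.00874 (edgeR). Groups did not overlap for any of the 4. *Notch1*, *Jag1* and *Jag2* were also higher in both KO mice than in both WT mice but missed the threshold, and *Hes1* and *Rbpj* overlapped.

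Summed venous markers moved with these calls. They stood at 2423 and 3202 in WT and 894 and 1168 in KO CPM in *Apln*-positive ECs, while *Dll4* and *Hey1* are low and *Dll1* is high in venous-like ECs of either genotype. The stress list moved as well, with 7566 and 8279 in WT and 4695 and 4935 in KO. The part of either in the calls was not tested. With cells thinned to 2000 UMIs, edgeR called 163 of 5572 genes and none of the 8 members that could be tested. *Dll4* had a log2 fold change of 0.61 there (edgeR adjusted p = 0.46). The thinned share of *Apln*-positive ECs with *Dll4* was 26.3% and 11.1% in WT and 25.8% and 20.1% in KO, with overlap. With at least 2 *Apln* UMIs, 9 and 15 WT cells and 233 and 126 KO cells were left, and *Dll4* was at 173 and 68.8 in WT and 204 and 179.6 in KO. There edgeR called none of the 8 members tested and 425 of all 8260 genes. *Dll4* and *Notch4* were called by DESeq2 too, and *Hey1* (adjusted p = 0.0993) and *Dll1* (adjusted p = 0.118) were not. Without WT2, *Hey1* had a log2 fold change of 0.70 (edgeR adjusted p = 0.384) in place of 1.61, and *Dll1* and *Notch4* also lost their call (adjusted p = 0.331 and 0.0977). *Dll1* lost it without KO1 as well (adjusted p = 0.131).

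*Apln*-positive ECs were also compared with *Apln*-negative ECs of the same mice, with the mouse as a term. Of the 10 members 3 were lower in *Apln*-positive ECs, 7 were not called, and 8.96% of all genes were called. *Hey1* was at 20.6, 6.003, 34.5 and 33.2 in *Apln*-positive against 48.8, 39.5, 64.1 and 56.5 in *Apln*-negative ECs of WT1, WT2, KO1 and KO2, with a log2 fold change of -1.06 ± 0.18 (SE) and an adjusted p of 0.00325 (edgeR). *Jag2* was lower, with a log2 fold change of -0.52 ± 0.09 (SE) and an adjusted p of 0.00424, and *Jag1* with a log2 fold change of -0.42 ± 0.10 (SE) and an adjusted p of 0.0240 (edgeR). All 3 were lower in 4 of 4 mice. Summed arterial markers were lower too, at 75.4 and 254 in WT and 95.0 and 154 in KO CPM in *Apln*-positive against 808 and 747 in WT and 488 and 805 in KO in *Apln*-negative ECs, and their part was not tested. *Dll4* was at 72.0, 45.5, 164 and 139.6 in *Apln*-positive against 89.5, 70.8, 129 and 103 in *Apln*-negative ECs of WT1, WT2, KO1 and KO2. It was lower in both WT mice and higher in both KO mice, with an adjusted p of 0.799 (edgeR). When ECs with at least 2 *Apln* UMIs were compared with those without, *Dll4* had a log2 fold change of 0.66 (edgeR adjusted p = 3.47e-05). In that setting 2464 of the 12601 genes tested were called, 4 members among them. Its WT sums rest on 9 and 15 cells, and in WT2 *Dll4* was not above its level in *Apln*-negative ECs. Within capillary-like ECs no gene was called, and *Hey1* had a log2 fold change of -0.26 there. Only 1 and 4 WT cells and 21 and 37 KO cells of that cluster were *Apln*-positive. With so few cells, the lack of calls does not show that the differences were absent there. *Jag1* lost its call without WT1, KO1 or KO2 (edgeR adjusted p = 0.0519, 0.0718 and 0.119).

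**Figure D3:**
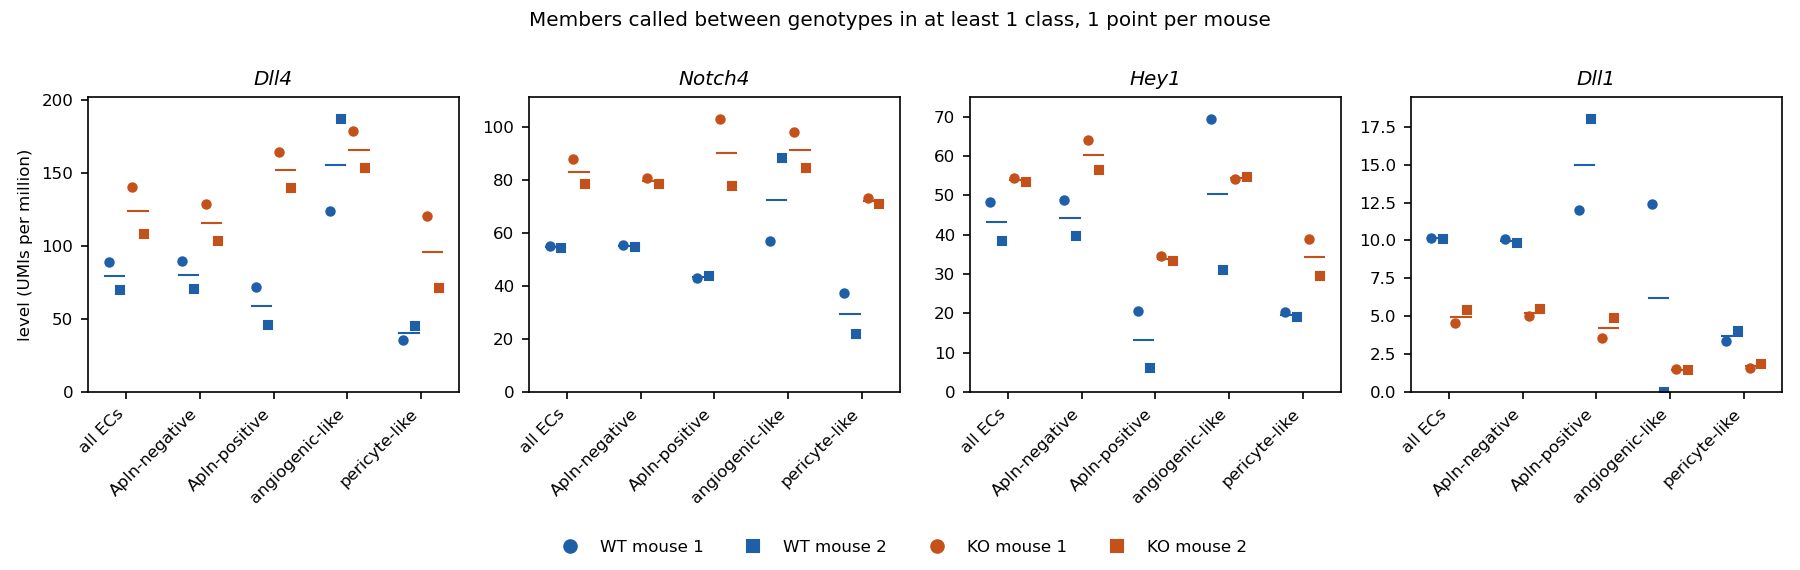
CPM (y axis, linear, from 0) of *Dll4*, *Notch4*, *Hey1* and *Dll1* in all ECs, *Apln*-negative ECs, *Apln*-positive ECs, angiogenic-like ECs and pericyte-like cells (x axis). Points are mice (blue WT, orange KO) and short lines means of 2 mice. In *Apln*-positive ECs *Dll4* lies at 72.0 and 45.5 in WT and 164 and 139.6 in KO mice, while in angiogenic-like ECs the genotypes overlap.

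In pericyte-like cells (74 and 148 in WT and 172 and 205 in KO mice) *Dll4* and *Notch4* were higher in KO, 2 of 9 members tested, where 6.14% of all genes were called. *Dll4* was at 35.5 and 45.0 in WT and 121 and 70.9 in KO, with a log2 fold change of 1.23 ± 0.26 (SE) and an adjusted p of 0.00744 (edgeR). *Notch4* was at 37.1 and 22.0 in WT and 73.2 and 70.9 in KO, with a log2 fold change of 1.33 ± 0.26 (SE) and an adjusted p of 0.00407 (edgeR). *Hey2* was lower in both KO mice, at 59.1 and 57.0 in WT and 40.9 and 33.3 in KO, and *Hey1* higher in both, at 20.3 and 19.0 in WT and 38.8 and 29.6 in KO, and neither passed the threshold (edgeR adjusted p = 0.116 and 0.118). DESeq2 called neither *Dll4* (adjusted p = 0.0518) nor *Notch4* (adjusted p = 0.0556). *Dll4* lost the edgeR call without WT1, WT2 or KO1 (adjusted p = 0.0853, 0.139 and 0.195), and without KO1 its log2 fold change was 0.77. *Notch4* lost it without WT2 (log2 fold change 0.89, adjusted p = 0.19).

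Endothelial RNA was present in these cells. All 7 endothelial markers were found in pericyte-like cells of each mouse, summing to 7102 and 7507 in WT and 7547 and 7645 in KO CPM, against 11785 to 13565 in capillary-like ECs, and the median cell held 2 and 1 in WT and 31.5 and 18 in KO UMIs of them. *Kdr*, one of the 7, was at 499.7 and 354 in WT and 862 and 794 in KO, and *Apln* at 1.69 and 1.00 in WT and 580.4 and 291 in KO. Pericyte-like cells with under 3 UMIs of the 7 markers numbered 44 and 87 in WT and 51 and 83 in KO. In them *Dll4* gave 2 UMIs over all 4 mice, *Hey1* 3, *Jag2* 4 and *Notch4* 10. There edgeR could test 5 members and called none, and it called 22 of all 4221 genes tested. *Hey2* was at 138 and 146 in WT and 131 and 83.9 in KO, *Jag1* at 190.5 and 185 in WT and 165 and 163 in KO and *Notch1* at 361 and 281 in WT and 409 and 371 in KO in the same cells, each as high as or above its level in all pericyte-like cells of that genotype except for *Notch1* in KO2. Of the 644 *Dll4* UMIs of all pericyte-like cells these cells held 2, and of the 440 *Notch4* UMIs 10, while they held 109 of 303 *Hey2* and 153 of 632 *Jag1* UMIs. Of the 7049991 UMIs of all genes in pericyte-like cells they held 875474. These cells were selected for few endothelial UMIs, and the part of that selection in their low counts of endothelial genes was not tested. They were also shallower, with median depths of 2915 and 2719 in WT and 4147 and 1926 in KO against 4386 and 3712 in WT and 12306 and 4981 in KO in all pericyte-like cells. Erythrocyte markers summed to 77.7 and 904 in WT and 9124 and 711 in KO CPM in pericyte-like cells and the stress list to 8031 and 6455 in WT and 5139 and 5035 in KO, and the part of either in the calls was not tested.

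In smooth muscle-like cells (270 and 190 in WT and 52 and 194 in KO mice) edgeR called 0 of 10 members and 0% of all 10256 genes, with 554 genes at an unadjusted p under 0.05, and DESeq2 called 2 genes, no member among them. At an unadjusted p under 0.05 were *Dll4*, at 47.7 and 51.9 in WT and 95.5 and 69.1 in KO, and *Hes1*, at 438 and 391 in WT and 296 and 334 in KO, neither with overlap. *Jag1* was also above both WT mice in both KO mice, as was *Notch1*. The 7 endothelial markers summed to 4381 and 4828 in WT and 6586 and 4730.4 in KO CPM, highest in KO1. In smooth muscle-like cells with under 3 of those UMIs, *Dll4* gave 5 UMIs over all 4 mice, while *Hey2* stood at 195 and 168 in WT and 192 and 193 in KO and *Hes1* at 530.3 and 531 in WT and 388 and 416 in KO.

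**Figure D4:**
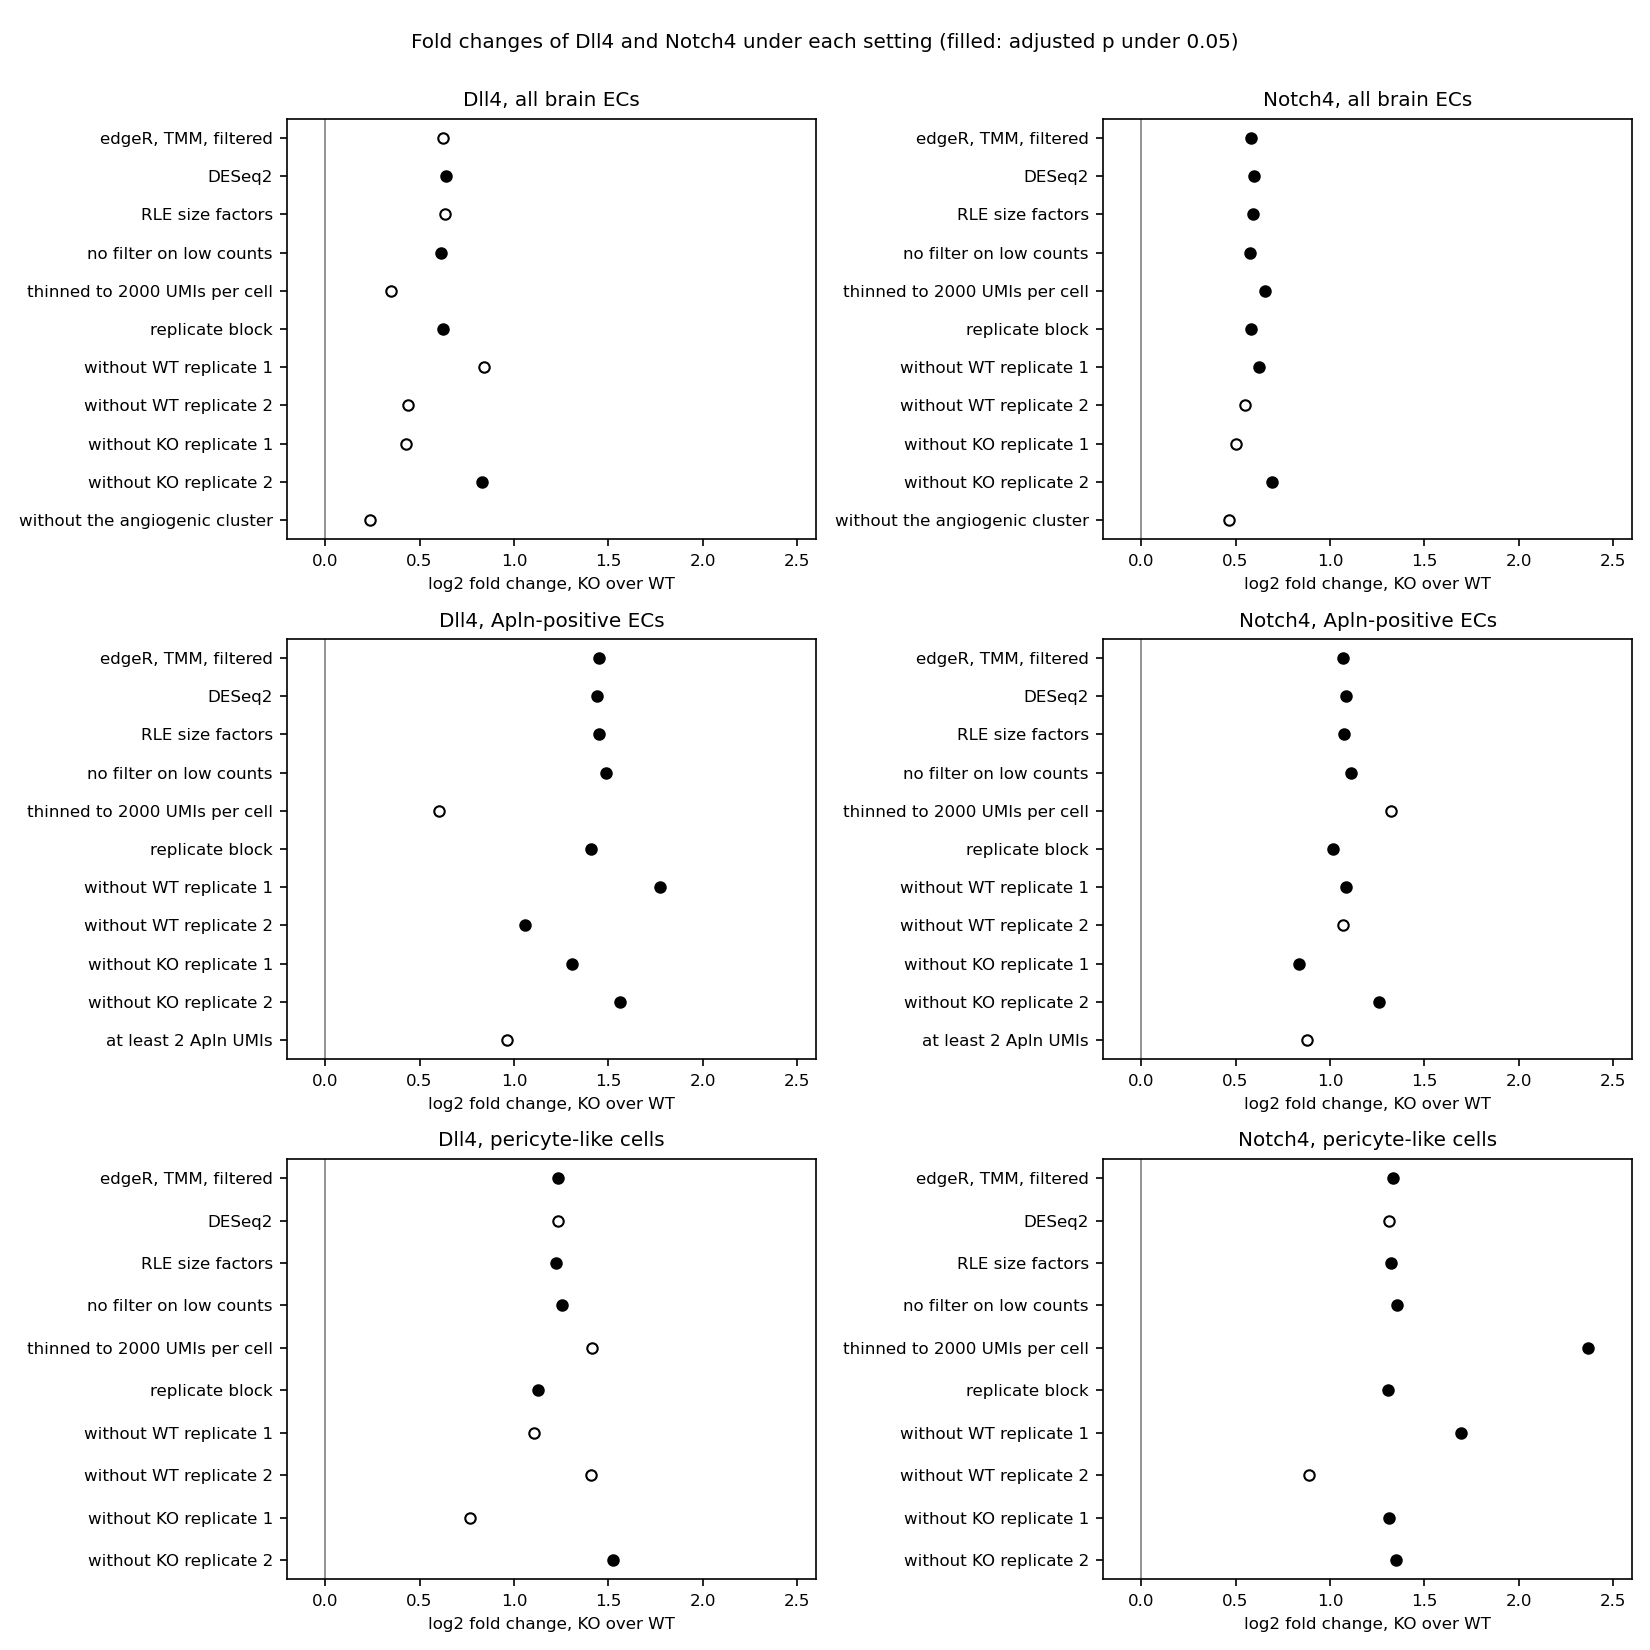
log2 fold change of *Dll4* (left) and *Notch4* (right), KO over WT, in all brain ECs, *Apln*-positive ECs and pericyte-like cells (rows) under each setting (y axis); a filled point has an adjusted p under 0.05. Every fold change shown is above 0, and that of *Dll4* in all brain ECs ranges from 0.24 without the angiogenic cluster to 0.84 without WT1.

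Another 46 genes of the pathway were listed (other ligands and receptors, other targets, receptor processing, glycosylation, nuclear cofactors, and endocytosis and turnover), of which 34 to 40 could be tested in a comparison. Over all 10 comparisons, in which 0% to 9.85% of all genes were called, 1 of them was called. This was *Notch3*, lower in *Apln*-positive ECs of KO, where the share of all genes was 9.85%. *Notch3*, the receptor of mural cells, was there at 12.002 and 7.72 in WT and 1.51 and 2.80 in KO mice, from 35 UMIs, with a log2 fold change of -2.24 and an adjusted p of 0.0248 (edgeR). It stood at 408 to 517 in smooth muscle-like and 253 to 410.2 in pericyte-like cells, and pericyte markers summed to 75.4 and 56.6 in WT and 56.1 and 30.4 in KO CPM in *Apln*-positive ECs. The median log2 fold change of the list, against that of all genes tested, was -0.04 against -0.02 in all ECs, -0.06 against -0.01 in *Apln*-positive ECs and -0.09 against -0.00 in pericyte-like cells.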

How the data were processed

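Per the file headers and labels, the authors counted reads with Cell Ranger (version 6.1.1 in the headers, 6.1.2 in the submitters' processing notes) against mm10 and deposited UMI counts per gene and cell barcode, not normalized, 1 library per mouse. The strand setting is not given in the sources used here, so how reads of overlapping genes were assigned is not known. Cells that showed over 500 genes and less than 10% of UMIs from mitochondrial genes were kept. Cells were clustered with Seurat 5.3.0 in R 4.3.3 (2000 variable genes, 50 principal components, resolution 0.2 for all cells and 0.4 for ECs, where 1989 genes remained without the Notch list) and named from marker lists. Doublets were not removed. UMIs were summed per mouse and class, and genotypes compared with edgeR 4.0.16 (filterByExpr, TMM, quasi-likelihood test, Benjamini-Hochberg adjusted p under 0.05 over all genes). The test was also run on simulated counts with 200 changed genes and a common dispersion, and its recovery is not given here. DESeq2 1.42.0, RLE size factors, no filter, thinning to 2000 UMIs per cell, other clusterings, a replicate block and leaving out each mouse were alternatives. The share intervals cover counting error. Members, gene lists, tests and alternatives were chosen with earlier results of these data known. Named genes were the 10 members, pathway genes that were called, and the 3 genes closest in pattern to *Dll4*, *Jag1*, *Notch4* and *Hey1*. The other genes were named after their values were seen.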

Additional observations from a re-analysis of the deposited data

Results flagged for a closer look

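The difference between genotypes in *Jag1* had one sign in some classes and the other sign in others, and was called in none. Its mean level in KO minus WT was 42.4 CPM in arterial-like ECs, 15.3 in venous-like ECs and 64.1 in smooth muscle-like cells, with both KO mice above both WT mice, and -9.65 in capillary-like ECs and -20.0 in pericyte-like cells, with both KO mice below. The arterial-like minus capillary-like and venous-like minus capillary-like differences were not called by edgeR (adjusted p = 0.198 and 0.386), the former passing only without KO1 (adjusted p = 0.0096), and the difference between the mural classes was not tested.

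Cells outside the comparisons also held members with both KO mice above both WT mice, with no test. Of the members, 5 were above and 1 below in fenestrated endothelial-like cells, and 2 above and 3 below in microglia-like cells. Only members above are named here. The share of all genes so separated was not counted, so no result about the members is read from it. In fenestrated endothelial-like cells the KO mean was 169 CPM for *Dll4* (144 and 118 in WT and 175 and 163 in KO), 41.6 for *Jag1*, 143 for *Jag2*, 434 for *Notch1* and 30.1 for *Hey1*. In microglia-like cells *Notch1* had a KO mean of 74.3 (64.9 and 67.7 in WT and 71.5 and 77.1 in KO).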

How the results depend on the processing

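The number of genes called (adjusted p under 0.05) was 805 in all ECs, 52 in arterial-like ECs, 215 in capillary-like ECs, 6 in venous-like ECs, 993 in *Apln*-positive ECs, 602 in pericyte-like cells, 0 in smooth muscle-like cells, 1151 in *Apln*-positive against *Apln*-negative ECs, 13 in the arterial-like minus capillary-like difference and 31 in the venous-like minus capillary-like difference. With no filter on low counts it was 1598 in all ECs, 180 in arterial-like ECs, 326 in capillary-like ECs, 188 in venous-like ECs, 42 in smooth muscle-like cells, 32 in the arterial-like minus capillary-like difference and 57 in the venous-like minus capillary-like difference. With DESeq2 it was 31 in arterial-like ECs, 64 in capillary-like ECs, 91 in venous-like ECs, 535 in *Apln*-positive ECs, 259 in pericyte-like cells, 2 in smooth muscle-like cells, 3 in the arterial-like minus capillary-like difference and 13 in the venous-like minus capillary-like difference. After thinning to 2000 UMIs per cell it was 14 in arterial-like ECs, 119 in capillary-like ECs, 163 in *Apln*-positive ECs, 155 in pericyte-like cells, 1 in smooth muscle-like cells, 723 in *Apln*-positive against *Apln*-negative ECs, 5 in the arterial-like minus capillary-like difference and 6 in the venous-like minus capillary-like difference. With the replicate number as a block it was 142 in arterial-like ECs, 18 in venous-like ECs and 27 in smooth muscle-like cells. With EC clustering at resolution 0.6 it was 31 in arterial-like ECs, 52 in capillary-like ECs and 660 in venous-like ECs. It was 183 in all ECs without the angiogenic cluster, 34 in arterial-like ECs without *Apln*-positive cells, and 22 in pericyte-like cells and 17 in smooth muscle-like cells without cells holding 3 or more endothelial marker UMIs. With at least 2 *Apln* UMIs it was 425 in *Apln*-positive ECs, 2464 in the comparison with *Apln*-negative ECs, which within capillary-like ECs alone gave 0 (453 genes at an unadjusted p under 0.05). With EC cluster 1 in place of the capillary-like cluster, chosen after seeing the data, it was 75. With each mouse left out in turn, a lone mouse of a genotype being assumed to vary like the others, it ran from 315 to 1288 in all ECs, 10 to 118 in arterial-like ECs, 53 to 912 in venous-like ECs, 306 to 1103 in *Apln*-positive ECs, 127 to 715 in pericyte-like cells, 30 to 66 in smooth muscle-like cells, 215 to 1671 in *Apln*-positive against *Apln*-negative ECs, 13 to 20 in the arterial-like minus capillary-like difference and 7 to 218 in the venous-like minus capillary-like difference. The causes of these shifts were not tested.

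Of 96 member fold changes fitted, 11 were called, 22 were called there or under an alternative, and 74 were called in no setting. The share of all genes called in the main fits ran from 0% to 9.85% by comparison, and no result about the members is read from these counts. Of those 74, 44 changed sign in at least 1 setting, and no fold is given for them. Among the 22, *Dll1* in venous-like ECs ran from -0.54 to 0.26 on the log2 scale with 1 mouse left out, the upper end without KO2. Between *Apln*-positive and *Apln*-negative ECs *Dll4* ran from -0.10 to 0.27 with 1 mouse left out (-0.04 without KO1) and turned to -0.58 in capillary-like ECs only, and *Notch4* ran from -0.19 to 0.12 and turned to -0.023 with DESeq2, -0.0039 with no filter and -0.0033 in capillary-like ECs only. Neither the reversed values nor the ones they reversed were called. The capillary-like values rest on 1 and 4 *Apln*-positive cells of the WT mice. *Hey2* in all ECs, near 0 CPM, was called without KO2 only (-1.92, adjusted p = 0.0096, edgeR), and *Dll1* in venous-like ECs with resolution 0.6 only (-0.76, adjusted p = 0.0477, edgeR). Replicate numbers are shared by the genotypes and go with sex. Deviations of same-numbered mice from their group means correlated at r = 0.22 over 12093 genes and r = -0.12 over 12087 genes without sex-linked ones. The labels give no shared litter or experiment, so the numbers were not taken as pairs and nothing was crossed. The paper mentions independent experiments but does not say which mice each held, so whether the replicate number marks an experiment is not known. With the replicate block 1089 genes were called in all ECs, 235 in capillary-like ECs, 1099 in *Apln*-positive ECs and 766 in pericyte-like cells, and *Dll4* was called in all ECs (adjusted p = 0.00607, edgeR). Depth limits the *Apln*-positive WT sums (38 and 64 cells) and the venous-like sum of KO1 (42 cells). DESeq2 adjusted p-values for 843 genes only in venous-like ECs.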

Other observations

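Fenestrated endothelial-like cells, which express *Plvap*, were left out of the brain ECs. Their *Hes1* level was 580.5 and 465 in WT and 724 and 495 in KO, above the 192 to 348 of arterial-like ECs in all mice, and *Nrarp*, a feedback inhibitor of Notch signalling, was at 229 and 129 in WT and 193 and 158 in KO against 17.5 to 21.7 in capillary-like ECs. Values for these cells come with no test between classes.

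Other genes of the pathway list differed in place as well. *Lfng*, a glycosyltransferase that modifies Notch receptors, was at 112 and 98.9 in WT and 135 and 102 in KO in venous-like ECs against 20.4 to 33.9 in arterial-like and 26.9 to 36.2 in capillary-like ECs. *Heyl*, a relative of *Hey1* and *Hey2*, was at 116 to 156 in smooth muscle-like and 105 to 136 in pericyte-like cells and at 0 to 1.34 in arterial-like ECs. *Notch2* was at 30.1 to 35.1 in smooth muscle-like cells against 8.44 to 13.01 in pericyte-like cells.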
